A study of Homo sapiens with 2 samples.

Results

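The genes described here encode the proteasome, its activators, its inhibitor and its assembly chaperones. Members were all rows of the deposited count table whose gene symbol is PSM, a letter from A to G and a number, with pseudogenes left out. This gave 42 of the 28038 listed genes. Poly(A) RNA had been sequenced from 1 OVCAR-3 culture that overexpressed IGF2BP3, a protein that binds RNA at m6A, and from 1 OVCAR-3 culture transfected with a blank viral vector, the control. OVCAR-3 is an established human ovarian carcinoma cell line. The labels name neither the vector that carried IGF2BP3 nor whether the cells were a clone or a pool. With 1 library per group there was no replicate error and no test, so every ratio compares these 2 libraries.

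The proteasome degrades proteins tagged with ubiquitin. Its 20S core is a barrel of stacked rings, with outer rings of alpha subunits that gate the entrance and inner rings of beta subunits, some of which cut peptides. The 19S particle caps the barrel: its base holds a ring of ATPases that unfold substrates, and its lid removes ubiquitin. Interferon induces the immunoproteasome subunits (PSMB8, PSMB9 and PSMB10), which take the place of the cutting subunits, and other activators (PSME1 to PSME4) can cap the core in place of the 19S particle. Dedicated chaperones put the core and the base together. Carcinoma cells depend on this machine to clear misfolded proteins, and drugs that block PSMB5 are used against myeloma.

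The overexpression library held 48017861 counts and the control library 43190215. IGF2BP3 itself had 6376 counts, 133 CPM (counts scaled to library size), in the overexpression library and 2944 counts, 67.9 CPM, in the control library, a ratio of 1.96. Of 7 epithelial markers 6 had a row, and all of those except KRT18 stayed under 10 CPM in each library. KRT18 was at 102 CPM in the overexpression library and 103 CPM in the control library. Of 7 markers of ovarian serous carcinoma, 2 were listed, both below 10 CPM. In the overexpression and control library, PAX8 had 32 and 28 counts and WFDC2 had 0 and 4. These 2 markers of the labelled carcinoma were near the floor, and the others, without a row, gave no level. The mesenchymal filament gene VIM was at 2149 CPM in the overexpression library and 2175 CPM in the control library. The other mesenchymal markers were far lower. In the overexpression and control library, ZEB1 was at 58.9 and 57.1 CPM, CDH2 at 12.5 and 13.1 CPM and FN1 at 2.36 and 3.02 CPM. The leukocyte marker PTPRC had 4 counts in the overexpression library and 0 in the control library.

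The 42 members were almost level between the libraries. Their counts summed to 408885 in the overexpression library and 376640 in the control library, a ratio of 0.983 after scaling by TMM (0.977 to 0.989). That range, like every range given beside a ratio here, is a 95% exact (Clopper-Pearson) counting interval computed from halved counts, because counts from 1 to 20 were even in 63.3% of cases in the overexpression library and 64.1% in the control library. Whether both mates of a read pair had been counted was not tested. The intervals cover counting error only. On the scale of the log2 ratio of CPM plus 1, the members had a median of -0.03, with the middle of their distribution (the quartiles) between -0.06 and 0.03. The 14157 genes that reached a sum of 50 counts had a median of 0.00 and quartiles of -0.09 and 0.11. All 42 members passed that minimum.

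Of the 42 members, 29 were below 0 and 13 above, where 48.9% of all genes past the minimum were below 0 and 51.1% above. Among the 37 members with at least 2000 counts, 27 were below 0, against 46.4% of the 7126 genes at that depth. On the scale of CPM plus 1, which shrinks ratios of low genes, PSMA2 alone was at least 1.2-fold different, on the higher side, where 7.49% of all genes were that much higher and 5.74% that much lower. At 1.1-fold, PSMA2, PSMB10 and PSME4 were higher and PSME2 and PSMG1 lower, where 20.4% of all genes were that much higher and 16.8% that much lower. The counting interval lay wholly below 1-fold in 11 members and wholly above it in PSME4 alone, where 10.9% and 15.9% of all genes lay so. With the counts as deposited, 17 members lay below and 5 above, where 18.6% and 22.8% of all genes did. Intervals narrow with depth, and most members are deeper than most genes past the minimum. Among the 37 members with at least 2000 counts, the halved-count interval lay below 1-fold in 11 and above it in 1. Of the 7126 genes at that depth, 1101 lay below and 1771 above. No member at that depth was at least 1.2-fold different, against 4.91% of those genes. No member was 1.5-fold different, as were 1.66% of all genes.

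**Figure D1:**
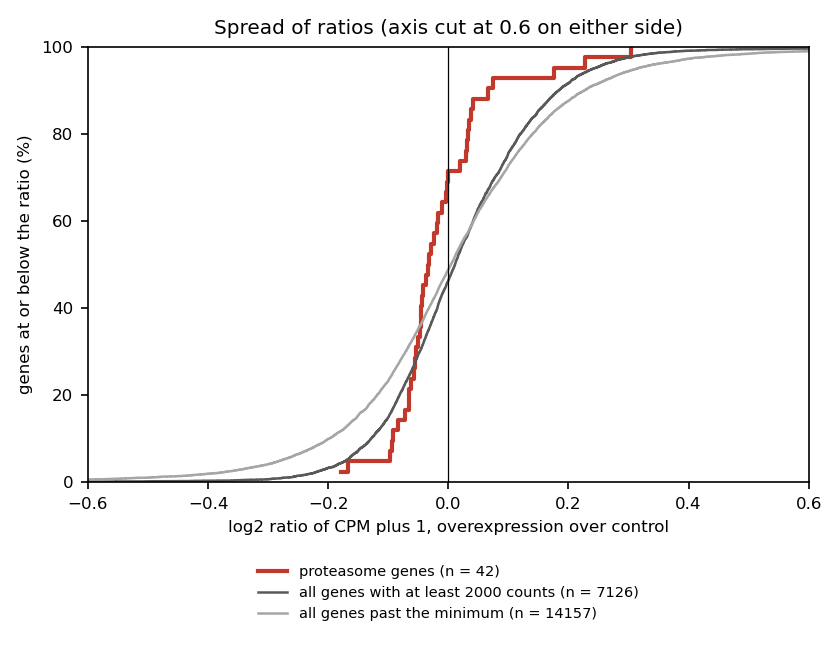
Cumulative share of genes (vertical axis, percent) by log2 ratio of CPM plus 1 (overexpression divided by control, horizontal axis) for the 42 proteasome genes, the 7126 genes with at least 2000 counts and all 14157 genes past the minimum. The proteasome curve climbs steeply just below 0, with 29 of 42 genes to the left of it, and its last steps on the right are PSME4, PSMB10 and PSMA2.

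Transcript levels, compared between genes as deposited FPKM (counts per kilobase of gene and per unit of library depth), spanned a wide range. In both libraries 35 of the 42 members were above 10 FPKM and 9 above 100 FPKM, while 5 were below 2 FPKM. PSMB4, a structural beta subunit, was the highest at 217 FPKM in the overexpression library and 227 FPKM in the control library. PSMA2, an alpha subunit, was the lowest at 0.296 FPKM in the overexpression library and 0.218 FPKM in the control library. The alpha and beta subunits of a core particle are present in equal copies, and PSMA2 stood far below PSMA7 of the same ring, which was at 132 FPKM in the overexpression library and 140.4 FPKM in the control library.

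Of the 5 members below 2 FPKM in both libraries, all but PSMG4 had exons that another protein-coding gene on the same strand shares. In the GENCODE annotation (release 29, GRCh38), 5 members had exons that overlap those of another protein-coding gene on the same strand: PSMA1, PSMA2, PSMA6, PSMB10 and PSMD9. Their FPKM was between 0.296 and 17.7 in the overexpression library and between 0.218 and 18.6 in the control library. The 10 other listed constitutive core genes were between 54.4 and 217 FPKM in the overexpression library and between 56.5 and 227 FPKM in the control library, so PSMA1, PSMA2 and PSMA6 did not overlap with them in level. The overlapping genes covered 97.1% of the annotated coding bases of PSMA2, 88.6% of PSMA1, 70.4% of PSMA6, 58.7% of PSMD9 and 58.3% of PSMB10. The overlapping gene had 4 counts in the overexpression library and 2 in the control library at PSMA2, 1 and 6 at PSMA6, and 64 and 57 at PSMB10. At PSMD9 one overlapping gene, WDR66, had 357 counts in the overexpression library and 319 in the control library, and the other had 4 and 8. The overlapping gene at PSMA1 is not analysed here. How the authors' counting treated reads that fall in 2 genes is not given in the sources used here, and its part in these levels was not tested. The levels of these 5 members are therefore uncertain, and so is that of PSMC1, of whose 31-base words 23.6% also occur in transcripts of other loci, the highest share of any member. A gene on the opposite strand also covers 75.8% of the exon bases of PSMC1, 30.7% of those of PSMD7 and 15.0% of those of PSMG4. The strand setting of the counting is not given, and the part of these overlaps was not tested.

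FPKM also depends on the gene length used. The length behind the deposited FPKM was a median of 1.91 times the longest coding transcript in GENCODE, and 5.63 times for PSMA2 (8378 and 1487 bases). Counted per kilobase of that transcript, PSMA2 was at 1.67 CPM in the overexpression library and 1.23 CPM in the control library, still far below PSMA7 at 232 and 246. Of the 48 subunit, activator and chaperone genes fixed in the list of functional groups, PSMB3, PSMB8, PSMB9, PSMC4 and the tissue-restricted PSMA8 and PSMB11 had no row and are not analysed here. The 22 listed pseudogenes of the family together held 949 counts in the overexpression library and 917 in the control library.

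**Figure D2:**
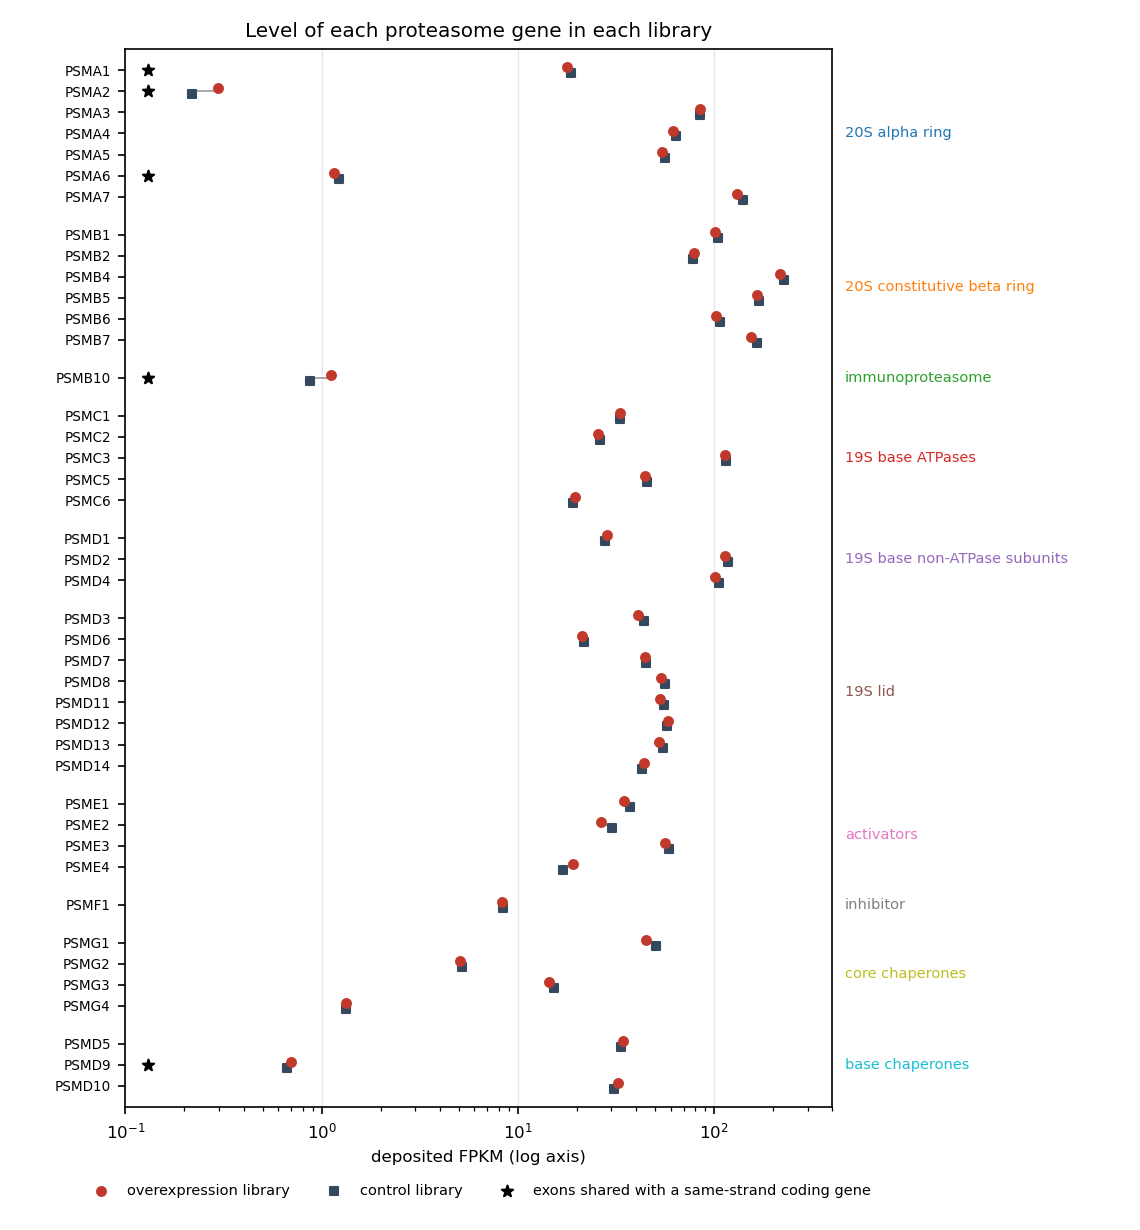
Deposited FPKM (horizontal log axis) of each of the 42 genes, by functional group, in the overexpression library (red circles) and the control library (dark squares); stars mark the 5 genes whose exons are shared with a same-strand coding gene. The circle and square of most genes nearly coincide, and of the starred genes only PSMA1 is above 2 FPKM.

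The alpha ring was slightly lower in the overexpression library, with a median log2 ratio of -0.04 over its 7 genes and 5 of them below 0. PSMA7 had 11071 counts, 231 CPM, in the overexpression library and 10627 counts, 245 CPM, in the control library. Its ratio of 0.943 (0.908 to 0.979) was the lowest of the ring and the only one of the ring with an interval off 1-fold. PSMA3, another alpha subunit, was at 265 CPM in the overexpression library and 262 CPM in the control library. PSMA4 was at 435 and 445 CPM and PSMA5 at 313 and 323 CPM in the overexpression and control library, and both intervals held 1-fold. PSMA2 had 119 counts in the overexpression library and 79 in the control library. Its log2 ratio of 0.30 was the highest of all members, but the interval of its ratio of 1.36 ran from 0.897 to 2.09 and held 1-fold. With the counts as deposited, the interval of PSMA2 ran from 1.02 to 1.84, so the call depends on whether counts are halved. PSMA6 had 362 and 345 counts and PSMA1 had 2593 and 2453 counts in the overexpression and control library.

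In the constitutive beta ring, 5 of 6 listed genes were below 0, with a median log2 ratio of -0.05. PSMB7, the subunit with trypsin-like activity, had 13188 counts, 276 CPM, in the overexpression library and 12724 counts, 294 CPM, in the control library. Its ratio was 0.938 (0.906 to 0.971). PSMB4 had 462 CPM in the overexpression library and 480.2 CPM in the control library, a ratio of 0.962 (0.936 to 0.988). These were the beta subunits with an interval off 1-fold. PSMB6, the caspase-like subunit, had 148 CPM in the overexpression library and 155 CPM in the control library, a ratio of 0.955 with an interval that held 1-fold. PSMB5, the chymotrypsin-like subunit that proteasome inhibitors bind, had 258 CPM in the overexpression library and 263 CPM in the control library, a ratio of 0.980 (0.946 to 1.02). PSMB1, a structural subunit, stood at 226 CPM in the overexpression library and 232 CPM in the control library. PSMB2, also structural, was the exception to the direction with 360 CPM in the overexpression library and 352 CPM in the control library, a ratio of 1.02 (0.992 to 1.06).

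Of the immunoproteasome, PSMB10, which takes the place of PSMB7, was the member with a row. It had 87 counts in the overexpression library and 61 in the control library, or 1.11 and 0.869 FPKM. The ratio of 1.29 had an interval of 0.794 to 2.12, so no difference was detectable at this depth. PSMB7 was 138 times as high as PSMB10 by FPKM in the overexpression library and 190 times as high in the control library. PSMB10 is one of the 5 genes with shared exons, and their part in that distance was not tested. The leukocyte markers, fixed because such cells are rich in immunoproteasome, were below 10 CPM in both libraries in the 3 of 5 that were listed.

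In the 19S base, the ATPases lay close to level, with a median log2 ratio of -0.0036 over 5 listed genes that turned to 0.0016 with DESeq2 size factors, from -0.04 for PSMC2 to 0.04 for PSMC6, and all 5 intervals held 1-fold. PSMC6 was at 147 CPM in the overexpression library and 143 CPM in the control library, and PSMC2 at 221 and 227 CPM. The non-ATPase base subunits PSMD2 and PSMD4 were lower. PSMD2, a scaffold of the base that docks ubiquitin receptors, had 27086 counts, 566 CPM, in the overexpression library and 25317 counts, 584 CPM, in the control library, a ratio of 0.969 (0.945 to 0.992). PSMD4, a ubiquitin receptor, had 307 CPM in the overexpression library and 318 CPM in the control library, a ratio of 0.967 (0.936 to 1.00), with an upper bound just under 1-fold. PSMD1, the other scaffold, had 449 CPM in the overexpression library and 438 CPM in the control library, a ratio of 1.03 (0.999 to 1.06).

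In the lid, 6 of 8 genes were below 0, with a median log2 ratio of -0.03. PSMD3 had 9703 counts, 203 CPM, in the overexpression library and 9394 counts, 217 CPM, in the control library. Its ratio of 0.935 (0.898 to 0.974) was the lowest of the 19S particle. PSMD11 and PSMD13 were the other lid genes whose interval lay below 1-fold, with ratios of 0.969 (0.940 to 0.998) and 0.961 (0.925 to 0.998). PSMD14, the metalloprotease that cuts ubiquitin off the substrate, had 320.5 CPM in the overexpression library and 314 CPM in the control library, a ratio of 1.02 (0.987 to 1.05). PSMD12 had the highest ratio of the lid, with 313 CPM in the overexpression library and 306 CPM in the control library, a ratio of 1.02 (0.988 to 1.06). PSMD6, PSMD7 and PSMD8 had ratios between 0.963 and 0.993 with intervals that held 1-fold. No 19S gene was 1.1-fold different.

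The 4 activators ranged from -0.18 to 0.18 on the log2 scale, with 3 of them below 0. PSME4, which encodes the large nuclear activator PA200, had 9525 counts, 199 CPM, in the overexpression library and 7631 counts, 176 CPM, in the control library. Its ratio of 1.13 (1.08 to 1.18) made it the sole member with an interval above 1-fold. PSME2, the beta subunit of the interferon-inducible 11S activator, went the other way with 4575 counts, 95.6 CPM, in the overexpression library and 4696 counts, 108 CPM, in the control library. Its ratio of 0.882 (0.832 to 0.935) was the lowest of all members. PSME1, the alpha subunit of the same ring, had 2960 counts, 61.8 CPM, in the overexpression library and 2861 counts, 66.0 CPM, in the control library, a ratio of 0.937 (0.870 to 1.01). PSME3, the nuclear 11S activator, had 292 CPM in the overexpression library and 302 CPM in the control library, a ratio of 0.966 (0.934 to 0.999). The intervals of PSME4 and of the other 3 activators did not overlap. Of the 31-base words of PSME2, 8.6% also occur in transcripts of other loci. PSMF1, the inhibitor PI31, had 86.2 CPM in the overexpression library and 87.2 CPM in the control library, a ratio of 0.988 (0.928 to 1.05).

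**Figure D3:**
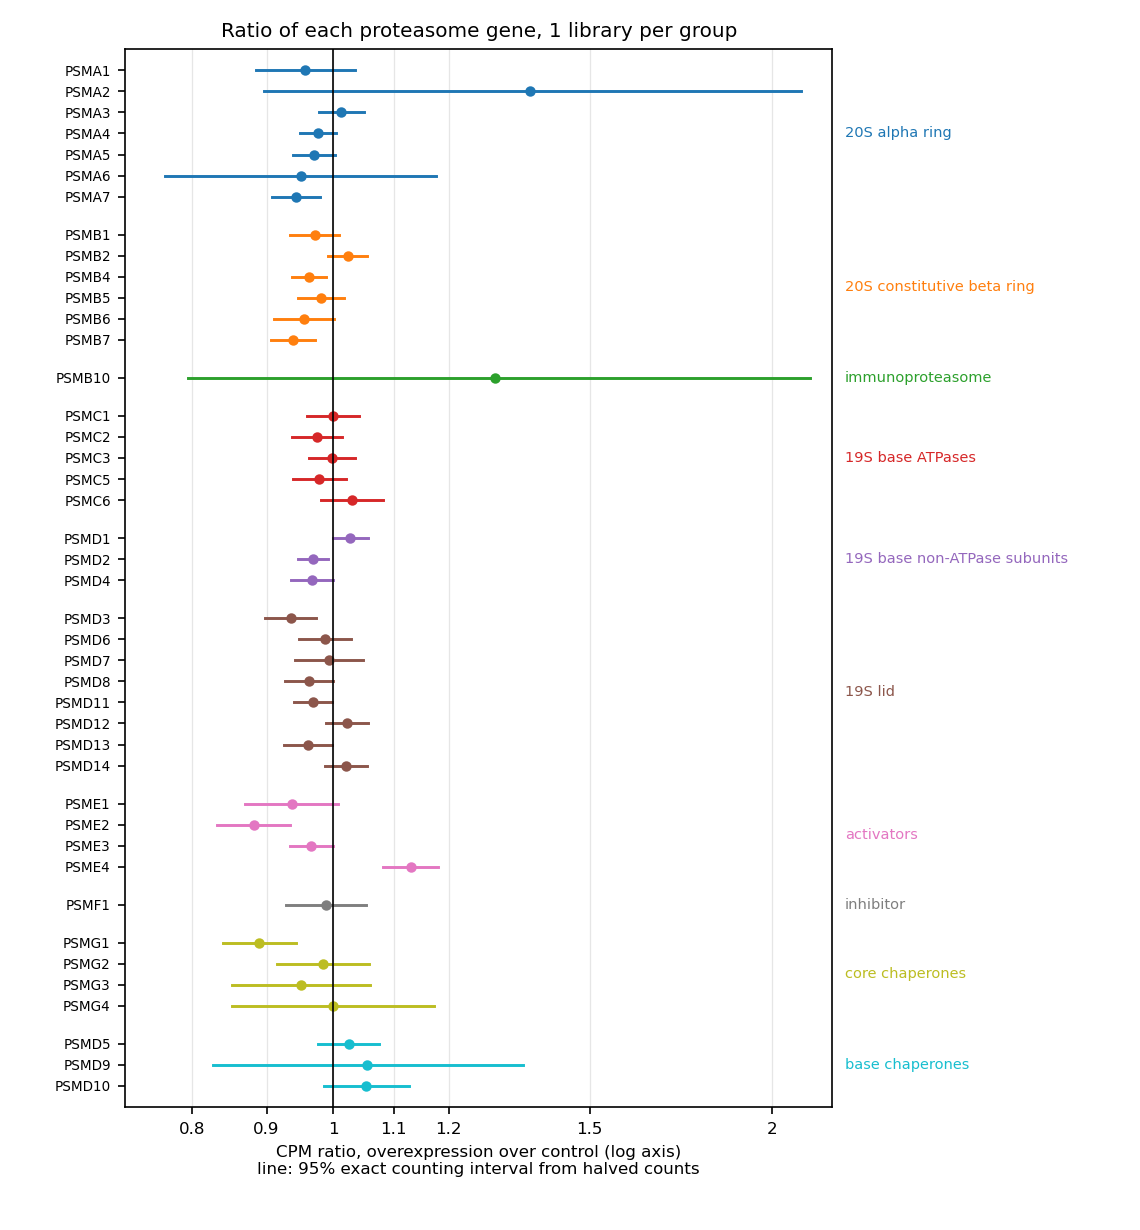
CPM ratio of each of the 42 genes, overexpression over control (horizontal log axis), with 95% exact counting intervals from halved counts, grouped by function; the vertical line is 1-fold. PSME4 lies wholly to the right of the line, PSME2 and PSMG1 lie furthest to the left, and the wide bars belong to genes with few counts such as PSMA2 and PSMB10.

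All 4 core chaperones were below 0, with a median log2 ratio of -0.05, although PSMG4 at -0.0016 turned to 0.0032 with DESeq2 size factors. All 3 base chaperones were above 0, with a median of 0.07, but each of their intervals held 1-fold and the difference between the groups was not tested. PSMG1, which pairs with PSMG2 to build the alpha ring, had 4627 counts, 96.7 CPM, in the overexpression library and 4709 counts, 109 CPM, in the control library. Its ratio of 0.889 (0.840 to 0.942) stood just above that of PSME2 and was the only one of the 7 chaperones with an interval off 1-fold. Its partner PSMG2 was at 63.6 CPM in the overexpression library and 64.6 CPM in the control library, a ratio of 0.984 (0.914 to 1.06). PSMG3 and PSMG4, the partners in the second core chaperone pair, had log2 ratios of -0.07 and -0.0016, and both intervals held 1-fold. Among the base chaperones, PSMD10 (gankyrin) had 77.8 CPM in the overexpression library and 73.9 CPM in the control library, a ratio of 1.05 (0.985 to 1.13). PSMD5 had 151 CPM in the overexpression library and 148 CPM in the control library, a ratio of 1.02 (0.977 to 1.07). PSMD9 had 295 counts in the overexpression library and 253 in the control library, and its interval held 1-fold.

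Of the 5 members that were 1.1-fold different, the 4 with one of 2 motifs in the promoter are printed here to show where the motif lies; PSMA2 had neither. They are the 250 bases before the transcription start in RefSeq (GRCh38.p14), in the order PSMB10 (chr16:67936851-67937100, minus strand), PSME2 (chr14:24146611-24146860, minus strand), PSME4 (chr2:53970994-53971243, minus strand) and PSMG1 (chr21:39183452-39183701, minus strand). The motifs were chosen after the ratios were seen. Capitals mark an interferon-response-like motif (GAAA, any 2 bases, GAAA) in PSMB10 and PSME2, and the letters TGACNNNGC, an antioxidant-response-like motif of the kind bound by the proteasome regulator NFE2L1, in PSME2, PSME4 and PSMG1.
PSMB10: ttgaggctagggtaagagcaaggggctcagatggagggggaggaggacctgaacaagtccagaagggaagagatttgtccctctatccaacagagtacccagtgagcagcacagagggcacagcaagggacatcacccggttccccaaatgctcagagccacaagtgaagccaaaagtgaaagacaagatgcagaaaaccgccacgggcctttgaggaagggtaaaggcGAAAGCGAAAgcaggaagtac
PSME2: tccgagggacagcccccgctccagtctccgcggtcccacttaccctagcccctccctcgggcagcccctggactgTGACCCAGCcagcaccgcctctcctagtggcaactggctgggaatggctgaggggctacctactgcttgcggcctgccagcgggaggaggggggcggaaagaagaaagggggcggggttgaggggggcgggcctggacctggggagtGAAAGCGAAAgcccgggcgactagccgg
PSME4: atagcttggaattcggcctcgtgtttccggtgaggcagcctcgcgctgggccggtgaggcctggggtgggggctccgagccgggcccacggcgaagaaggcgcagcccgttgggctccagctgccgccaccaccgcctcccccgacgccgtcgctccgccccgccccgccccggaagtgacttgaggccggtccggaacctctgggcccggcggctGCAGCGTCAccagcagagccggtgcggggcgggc
PSMG1: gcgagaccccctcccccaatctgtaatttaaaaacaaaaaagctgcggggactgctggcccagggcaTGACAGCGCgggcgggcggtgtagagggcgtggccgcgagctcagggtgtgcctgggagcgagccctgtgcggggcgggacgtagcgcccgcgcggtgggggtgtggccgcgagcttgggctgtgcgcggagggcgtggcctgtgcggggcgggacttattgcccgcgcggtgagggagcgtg

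PSMB10 and PSME2 both carry the letters GAAAGCGAAA close to the RefSeq start. The first base is at position -21 in PSMB10 and -28 in PSME2, counted back from that start. PSME4 carries its motif on the reverse strand, with the first base at -34. Searched on both strands, the interferon-response-like letters were in 6 of 44 windows of the members (PSMA4, PSMB4, PSMB10, PSME1, PSME2 and PSMG4), against 3.57% of all 35116 windows. In PSME1 the match begins 6 bases into the transcript. The antioxidant-response-like letters were in 12 of the 44 windows, against 13.3% of all windows, and the CCAAT box in 17, against 34.6%. Windows of 300 bases were found for 36 members, and PSMA7, PSMB1, PSMB6, PSMB7, PSMD4 and PSMG3 had none in the table. The members with the antioxidant-response-like letters had a median log2 ratio of -0.03, and the 24 without had -0.02. The 6 members with the interferon-response-like letters had a median of -0.05 and the 30 without had -0.02. Of these 6, PSMB10 was the single member above 0, at 0.23 with an interval that held 1-fold, and PSME2 was the lowest at -0.18. A match describes these letters and shows no binding.

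Ratios of the members varied with transcript composition. Among the 37 members with at least 2000 counts, the 15 whose longest coding transcript was at least 50% GC were all below 0, with a median log2 ratio of -0.06. With DESeq2 size factors 14 of the 15 were, since PSMC3 turned to 0.0016. Of the 22 with a lower GC content, 10 were above 0 and 12 below, with a median of -0.01. Across these 37 genes the log2 ratio and GC content had a Pearson r of -0.59 and a Spearman rho of -0.68. All genes at that depth showed the same tendency: 68.4% of 2643 GC-rich genes and 32.5% of 4350 others were below 0, with a rho of -0.46 over 6993 genes. The cut at 2000 counts left out the GC-rich members PSMB10 (60.1% GC) and PSMD9 (51.7% GC), both above 0 at 0.23 and 0.07. It also left out PSMG4 (52.6% GC), at -0.0016. Over all 42 members the Pearson r was weaker at -0.33 and the rho was -0.5. These correlations are across genes of the same 2 libraries, which are not independent replicates, and the 50% line was chosen after the values were seen. Among the 22 members under 50% GC, PSME4 with 41.5% GC was the highest and PSMG1 with 46.7% GC the lowest. In transcript length the same 37 genes had a rho of 0.45 with the log2 ratio, against 0.41 over the 6993 genes. The part of GC content and length in the ratios was not tested.

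**Figure D4:**
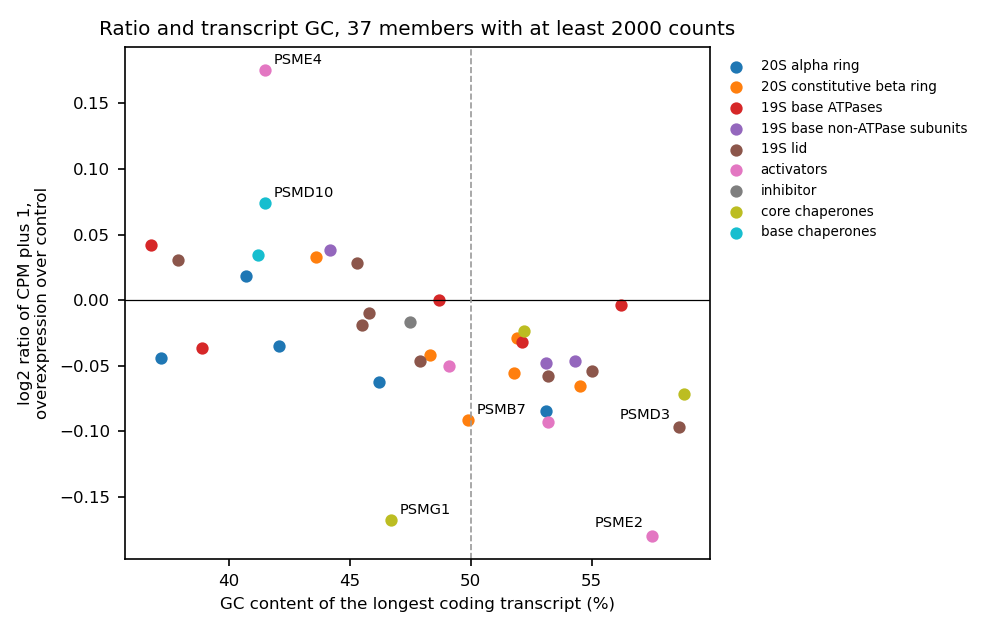
Log2 ratio of CPM plus 1 (overexpression divided by control, vertical axis) against GC content of the longest coding transcript in percent (horizontal axis), for the 37 members with at least 2000 counts, coloured by functional group; the dashed line is 50% GC. All 15 points at or right of the dashed line are below 0, and left of it PSME4 is the highest point and PSMG1 the lowest.

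Other genes of the pathway were fixed as 4 lists of 39 genes, of which 38 were listed and 36 passed the count minimum. Of these 36, 17 were above 0 and 19 below, with a median log2 ratio of -0.01. The accessory factors (chaperones such as POMP, receptors such as ADRM1, and the ubiquitin enzymes at the proteasome) had 5 above and 11 below 0 and a median of -0.04, close to that of the members. UBE3A, a ubiquitin ligase, was at 0.11, TXNL1, a redox protein on the 19S particle, at -0.11, ADRM1 at -0.10 and MIDN at -0.09. The shuttle proteins that carry ubiquitinated substrates had 4 above and 2 below 0, with UBQLN2 at -0.09, UBQLN1 at 0.05 and NUB1 at 0.03.

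The regulators of proteasome genes had 4 genes above and 4 below 0. NFE2L1, the transcription factor that restores proteasome genes when the proteasome is impaired, had 10675 counts, 223 CPM, in the overexpression library and 9592 counts, 221 CPM, in the control library, a ratio of 1.01 (0.969 to 1.05). DDI2, the protease that activates NFE2L1, was at 84.8 CPM in the overexpression library and 73.6 CPM in the control library, a log2 ratio of 0.20. MAFF, a small partner protein of NFE2L1, was at 9.97 CPM in the overexpression library and 12.9 CPM in the control library, a log2 ratio of -0.34. It was 1 of the 3 among 36 pathway genes that were at least 1.2-fold different, as were 13.2% of all genes past the minimum. The related NFE2L2 stood at -0.13 and MAFK at -0.06. Peptide loading and its control, the pathway fed by the immunoproteasome, had a median of 0.12 over 6 genes. Of these, 4 were above 0 and 2 below, the lowest at -0.08. IRF1, a transcription factor for PSMB9 and other antigen-processing genes, was at 7.92 CPM in the overexpression library and 5.91 CPM in the control library, a log2 ratio of 0.37. ERAP2, a peptide-trimming enzyme, stood at 0.34 and ERAP1 at 0.11. TAP2 had 3 counts in the overexpression library and 5 in the control library, TAPBP had 1 and 0, and TAP1 is not analysed here.

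**Figure D5:**
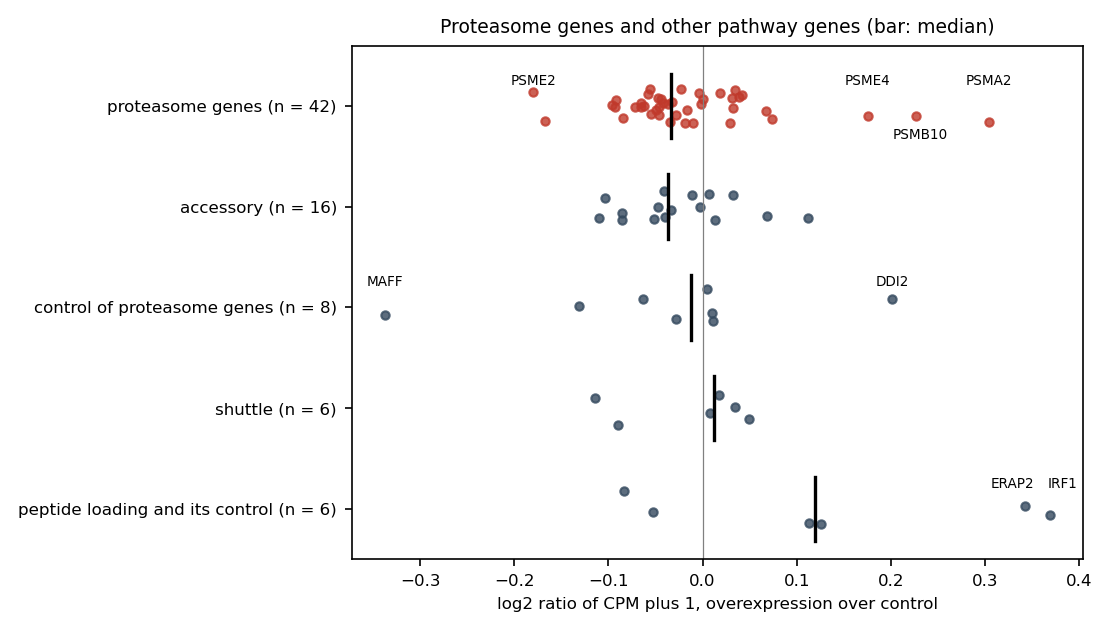
Log2 ratio of CPM plus 1 (overexpression divided by control, horizontal axis) of each proteasome gene (red) and of each measured gene in the 4 other lists (dark), with the list's median as a bar; vertical scatter within a list is for legibility. Proteasome genes cluster near their median of -0.03, while IRF1 at 0.37 and MAFF at -0.34 are the outermost points of the other lists.

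The members lie on 17 chromosomes, with 7 on chromosome 14 and 6 on chromosome 17. Those on chromosome 14 ranged from -0.18 for PSME2 to 0.04 for PSMC6 on the log2 scale, and those on chromosome 17 from -0.10 for PSMD3 to 0.03 for PSMD12. PSME1 (chromosome 14, 24136158 to 24138967, plus strand) and PSME2 (chromosome 14, 24143362 to 24147570, minus strand) lie close together in GRCh38. Both were below 0. PSME4 (chromosome 2, 53864067 to 53970840, minus strand) and both other members on chromosome 2 were above 0, and PSMG1 (chromosome 21, 39174769 to 39183851, minus strand) was the single member on its chromosome.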

How the data were processed

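RNA of 1 overexpression and 1 control culture was sequenced, per the labels, after capture with oligo(dT) beads and a dUTP library method. The authors deposited whole-number counts per gene, FPKM values and a log2 fold change, per the file headers. Per the submitters' processing notes, GRCh38 was the build. The sources used here do not give the aligner, the counter, its strand setting or the annotation release. The authors' deposited log2 fold change equalled the log2 ratio of CPM with a small prior count and was used no further. FPKM values were used as deposited.

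Counts were scaled by TMM (edgeR 4.0.16, R 4.3.3). Log2 ratios (overexpression divided by control) were taken of CPM plus 1 for the 14157 genes that reached a sum of 50 counts; this scale understates ratios of low genes. Intervals were 95% exact (Clopper-Pearson) intervals from counts divided by 2, and from counts as deposited where stated. Reads without molecular identifiers are not independent molecules. No p-value was computed. The calculation was tested on simulated independent counts, which were scaled by library totals and not halved. That test therefore did not cover the intervals from halved counts. GENCODE release 29 held 26424 of the 28038 gene IDs. Alternatives were other scalings (library totals, DESeq2 1.42.0), FPKM plus 1, other pseudocounts, minimums and thresholds. Members, lists and motifs were chosen with earlier results of these data known. Members described with values were the highest and lowest of each group, the 8 furthest from 0, PSMB10 and PSMB5 to PSMB7; others are given beside them. Some genes of the other pathway lists are not reported here by name. Python 3.11.15, numpy 2.4.6, pandas 2.3.3, scipy 1.17.1 and matplotlib 3.10.9 were used.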

Additional observations from a re-analysis of the deposited data

How the results depend on the processing

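The median log2 ratio of the 42 members was -0.03 and stayed between -0.05 and -0.03 under 11 alternatives, below the median of all genes in each. Of 21 members with values in full, 20 kept their sign under the other scalings, pseudocounts and FPKM plus 1; PSMG4, at -0.0016, turned to 0.0032 with DESeq2 size factors. Among the other members PSMC3 turned from below to above 0 with DESeq2 size factors (0.0016) and PSMC1 from above to below with library totals (-0.0091). Members below 0 then numbered 27 and 30. The base ATPase median was 0.0016 with DESeq2 size factors and 0.0191 without overlapping members, where PSMC3 and PSMC6 alone remained. Members below 0 numbered 29, against 13 of the 17 that overlap no other annotated gene, a subset by construction. In that subset the core chaperones were PSMG1 alone, at -0.17. The single 1.2-fold different member (PSMA2) became 2 when 0.1 CPM was added and 0 when 5 CPM was added, with FPKM plus 1, with a minimum of 200 or 2000 counts, and without overlapping or same-strand members. A fold threshold of 1.1 gave 5 and one of 1.5 gave 0. Members with an interval off 1-fold numbered 22 with counts as deposited and 12 with halved counts, which are wider by construction. The minimum of 2000 counts and the subset without same-strand coding genes were added after seeing the data. No paired analysis was possible because each group had 1 library. Counting error limits PSMA2, PSMB10, PSMA6, PSMD9 and PSMG4 most, which have the fewest counts; replicate error is unknown for all.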
